A study of Rattus norvegicus with 18 samples.

Results

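The genes described here were near zero in uninjured rat dorsal root ganglia and were read in every library after nerve injury. They were chosen by their measured values in the deepest runs, as genes at 4 normalized counts or fewer in every naive library and at 10 or more in every library after L5 spinal nerve transection (SNT). Of 26172 Ensembl genes listed, 64 met both limits, and none was removed for having a symbol in a supplementary gene table of the study, of which 1999 symbols were at hand. A normalized count is a read count divided by a library's DESeq size factor, which lay close to 1, so that 1 normalized count was about 1 read. Counts were not divided by gene length, and levels were therefore compared between libraries and not between genes. Since the same values chose the genes, their rise after SNT is a description and carries no test.

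The ganglia came from male Wistar rats, and for each library the L5 dorsal root ganglia (DRG) of 4 animals were pooled. Tissue of SNT animals was collected 7 days after transection of the spinal nerve at L5, whereas naive animals had no operation. There were 3 SNT and 3 naive libraries of poly(A) enriched RNA, and each was sequenced in 3 technical replicate runs, named 17 M, 25 M and 50 M after their approximate depth in megareads. No sham operation is among the groups, so the cut nerve and the surgery around it cannot be told apart, and the age of the animals is not given in the sources used here.

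The DRG holds the cell bodies of sensory neurons, wrapped by satellite glial cells, with Schwann cells along the axons, fibroblasts, vessels and resident macrophages. When a peripheral nerve is cut, neurons are known to switch on a regeneration program led by transcription factors such as Atf3 and Jun, members of the AP-1 family, and macrophages and lymphocytes are known to gather around them. Among genes that respond in this way are neuropeptides and hormones, cytokines, matrix proteases and some genes better known from skin or muscle. In bulk tissue a change in the number of cells of a type and a change in the RNA per cell cannot be told apart.

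The deposited tables list genes by Ensembl identifier alone. A symbol was attached only where a gene's SNT/naive ratio of means lay within 0.1 of that of exactly 1 gene in a named list of the study, and where that named gene matched no other gene of the table. This gave names to 21 of the 64 genes, and the other 43 stayed unnamed. That list holds the genes that the study ranked highest for significant increases after SNT, by RNA-seq or by exon arrays. Named genes, inside and outside the limits, were therefore picked for large rises. Another 24 named genes of that list matched genes outside the limits, among them Atf3, the injury-response transcription factor, which had 217.7, 161 and 252 normalized counts in naive libraries 1, 2 and 3 against 6121, 6999 and 8213 in SNT libraries 1, 2 and 3. Values of 3 libraries are given in this order throughout.

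All 64 genes were in the fit of SNT against naive over 17930 tested genes (limma on log2(normalized count + 1), Benjamini-Hochberg adjusted p under 0.1), and all 64 were called higher in SNT. The limits used the same contrast, so this count follows from them; of all tested genes, 29.2% were called higher. Over all tested genes 49.8% of the calls were higher in SNT, and 62.5% with equal library totals, a scaling that shifted the median over all tested genes from 0.01 to 0.16 on the log2 scale.

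The levels reached after SNT were mostly modest. The mean over the SNT libraries ran from 12.3 to 2311 normalized counts with a median of 29.6, and it was under 20 in 14 genes, from 20 to under 50 in 31, from 50 to under 100 in 10 and 100 or more in 9. In the naive libraries the 64 genes together had 267 reads at 50 M, against 19914 in the SNT libraries. No naive read was found for 10 of the genes, 19 had 1 to 3 reads over the 3 naive libraries, and the other 35 had up to 11. Where no naive read was found, a ratio is given as a lower bound against 3 reads over the naive group, and otherwise as a ratio with an exact 95% interval for counting error, which leaves out the spread between libraries.

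Some genes lay close to the limits. Inside them, 21 genes had their highest naive library between 3 and 4 (3.01 to 3.96) and 8 had their lowest SNT library between 10 and 11 (10.4 to 10.9). Just outside, 19 genes that were not in that supplementary table had their highest naive library between 4 and 5 (4.02 to 4.95) with every SNT library at 10 or more, and 7 met the naive limit with their lowest SNT library between 9 and 10 (9.78 to 9.81). Igsf23 was left out in this way, with 4.95, 0 and 0.96 in naive DRG against 93.2, 110 and 114 after SNT. The keratinocyte cross-linking enzyme Tgm1 lay a little further out, with 1.98, 5.02 and 1.92 in naive DRG against 803, 1075 and 1290 after SNT.

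**Figure D1:**
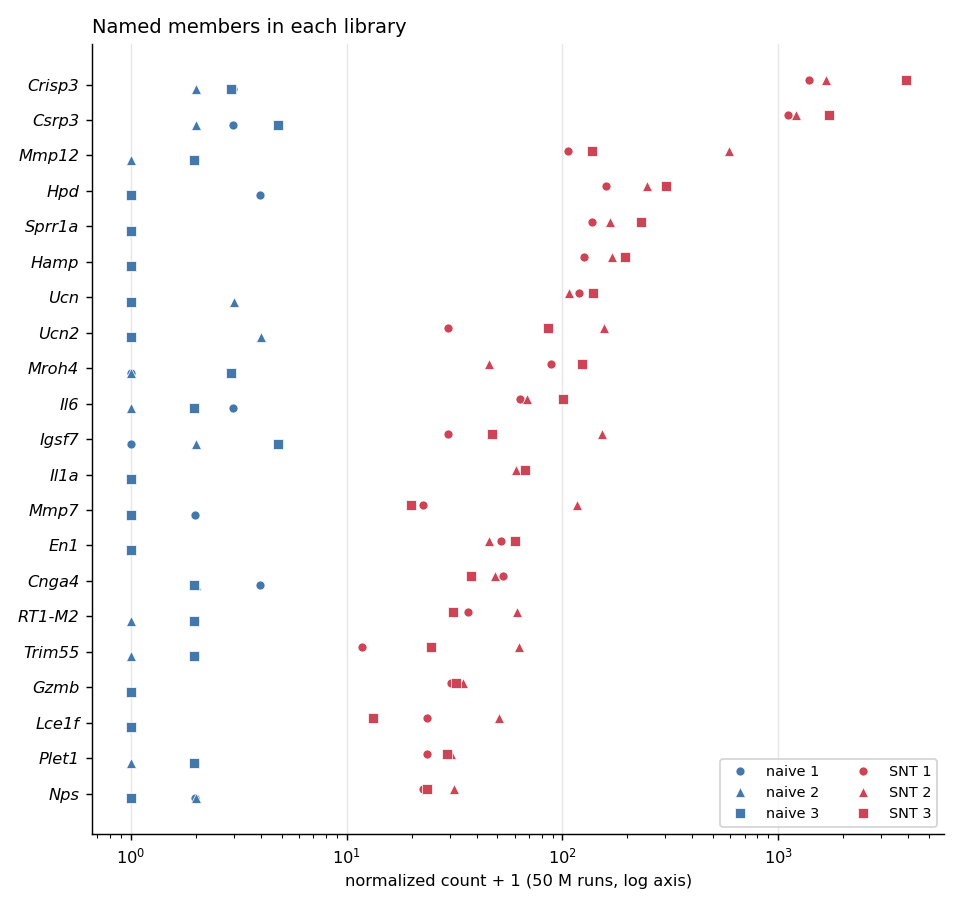
Normalized count + 1 of the 21 named genes in each of the 6 libraries at 50 M, on a log axis, with naive libraries in blue and SNT libraries in red and the replicate number given by the symbol. Every naive point lies at 4 normalized counts or fewer and every SNT point at 10 or more, as the limits require, and points of a gene at 0 in several naive libraries lie on top of each other.

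The window around the annotated start was examined for the named genes, since the limits used no sequence. RefSeq promoters (GRCr8, 250 bases before to 50 after the start) held exactly 1 entry for 15 of the 21 named genes, matched by symbol. Igsf7 had 4 entries and was left out, and Csrp3, Mroh4, Nps, RT1-M2 and Trim55 had none. The AP-1 motif TGANTCA, which reads the same on both strands, was found in 10 of the 15 windows (66.7%), against 2453 of all 33469 promoters (7.33%). The 10 were those of En1, Gzmb, Hamp, Hpd, Il1a, Mmp12, Mmp7, Plet1, Sprr1a and Ucn2, and all of their matches lay before the start, from 12 to 167 bases away. Of these, the name of En1 was lost when the names were matched with a tolerance of 0.05, and that of Gzmb with 0.2. Sprr1a alone of the 15 had a pair of matches, 147 and 117 bases before the start.

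The CRE motif TGACGTCA, which differs from the AP-1 motif by 1 inserted base and cannot match at the same letters, was found in the windows of Ucn and Il6 (2 of 15, 13.3%, against 1.83% of all promoters). A TATA box (TATAAA or its reverse complement) was found in 6 of 15 windows (40%, against 14.2% of all), the STAT motif TTCCNGGAA in that of Cnga4 alone (6.67%, against 1.27%) and the NF-kB motif GGGACTTTC in none (against 0.326%). For NF-kB only this exact string was searched and not looser forms of the site, so a lack of NF-kB sites does not follow. Both strands were searched, no test was run on these shares, and a match is only a match of letters. The 8 stretches below, each the 250 bases before the start and printed 5′ to 3′ on the strand of the gene with every motif match in capitals, are shown because they carry the AP-1 matches of 6 of the genes and both CRE matches. Coordinates are those of GRCr8, which differs from the Rn5 build of the counts.
Sprr1a, chr2:180752626-180752875, minus strand: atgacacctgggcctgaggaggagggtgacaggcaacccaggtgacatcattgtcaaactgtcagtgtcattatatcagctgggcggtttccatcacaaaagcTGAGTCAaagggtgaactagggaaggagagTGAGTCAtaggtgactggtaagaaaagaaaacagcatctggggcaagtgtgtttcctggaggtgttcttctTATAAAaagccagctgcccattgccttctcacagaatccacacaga
Mmp12, chr8:12866402-12866651, plus strand: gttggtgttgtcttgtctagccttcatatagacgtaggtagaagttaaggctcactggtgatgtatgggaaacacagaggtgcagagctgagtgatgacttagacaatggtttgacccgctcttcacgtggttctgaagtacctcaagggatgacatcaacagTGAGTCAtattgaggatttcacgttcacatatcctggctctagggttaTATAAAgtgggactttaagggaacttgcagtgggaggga
Mmp7, chr8:13132793-13133042, plus strand: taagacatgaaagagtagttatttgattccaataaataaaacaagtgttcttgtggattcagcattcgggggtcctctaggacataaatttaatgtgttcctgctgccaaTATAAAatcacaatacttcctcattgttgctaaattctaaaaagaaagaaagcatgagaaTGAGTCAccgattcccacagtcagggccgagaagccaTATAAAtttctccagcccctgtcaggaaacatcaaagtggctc
Hamp, chr1:95300272-95300521, minus strand: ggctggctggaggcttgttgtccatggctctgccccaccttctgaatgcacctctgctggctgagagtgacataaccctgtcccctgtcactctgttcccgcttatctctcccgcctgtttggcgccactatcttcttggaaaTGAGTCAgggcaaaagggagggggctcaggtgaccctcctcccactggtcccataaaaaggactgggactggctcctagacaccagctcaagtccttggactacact
Il1a, chr3:136990018-136990267, minus strand: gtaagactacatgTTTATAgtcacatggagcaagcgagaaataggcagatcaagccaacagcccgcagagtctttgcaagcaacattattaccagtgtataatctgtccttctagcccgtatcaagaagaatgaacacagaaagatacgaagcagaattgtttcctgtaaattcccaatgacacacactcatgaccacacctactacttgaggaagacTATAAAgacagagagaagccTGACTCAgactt
Gzmb, chr15:34462470-34462719, minus strand: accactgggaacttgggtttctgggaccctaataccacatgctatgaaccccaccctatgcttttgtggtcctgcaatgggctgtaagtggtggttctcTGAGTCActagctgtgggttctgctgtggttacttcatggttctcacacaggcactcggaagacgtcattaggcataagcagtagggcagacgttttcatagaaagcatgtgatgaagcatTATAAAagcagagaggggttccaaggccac
Ucn, chr6:30957836-30958085, plus strand: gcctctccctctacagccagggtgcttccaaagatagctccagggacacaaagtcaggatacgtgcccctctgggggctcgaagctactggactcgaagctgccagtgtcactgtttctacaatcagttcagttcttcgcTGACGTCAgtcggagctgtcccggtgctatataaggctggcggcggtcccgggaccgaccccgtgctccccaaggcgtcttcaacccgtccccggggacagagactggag
Il6, chr4:5894576-5894825, minus strand: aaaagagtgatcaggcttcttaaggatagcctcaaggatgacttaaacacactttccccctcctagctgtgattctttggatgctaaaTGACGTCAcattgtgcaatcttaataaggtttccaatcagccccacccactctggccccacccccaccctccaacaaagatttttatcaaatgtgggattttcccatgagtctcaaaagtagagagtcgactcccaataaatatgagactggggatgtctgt
In Mmp12, Mmp7, Il1a, Gzmb and Sprr1a a TATA box lies nearer than 50 bases to the start, with the AP-1 match before it in all of these but Il1a, whose match lies between the TATA box and the start.

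**Figure D2:**
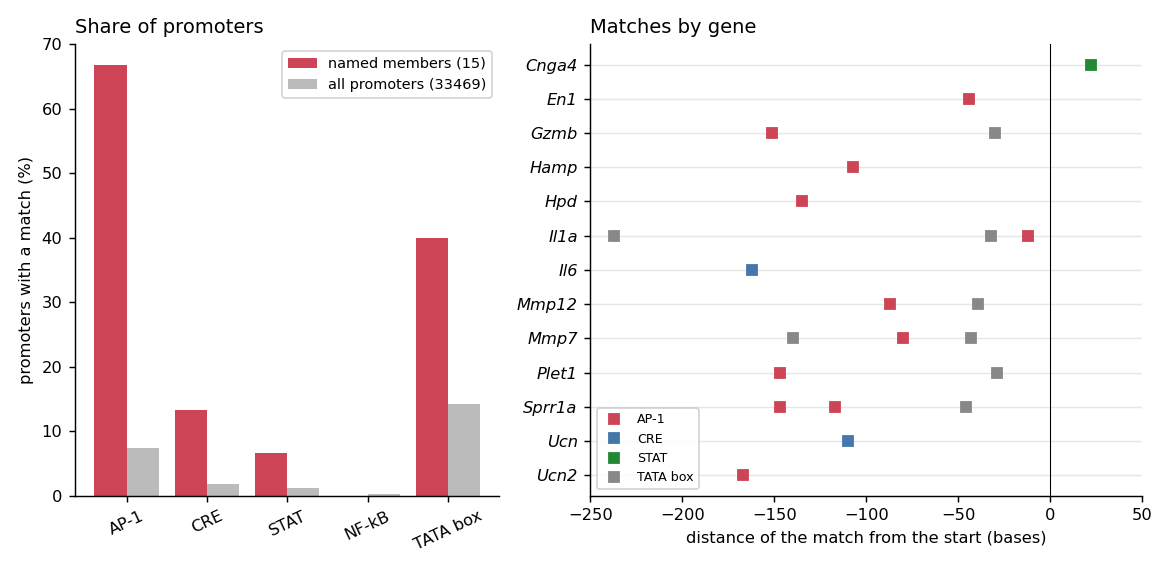
Left, percent of promoters with at least 1 match to each motif, for the 15 named genes with 1 RefSeq promoter (red) and for all 33469 promoters (grey), on an axis from 0. Right, distance of each match from the annotated start in bases, by gene and motif; the AP-1 matches lie from 12 to 167 bases before the start.

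Peptide hormones, neuropeptides, cytokines and the secreted protein Crisp3 were 7 of the 21 named genes, not counting the proteases, which are described below. Il6 (ENSRNOG00000010278) encodes interleukin 6, a cytokine that acts on neurons and glia through gp130. It had 1.98, 0 and 0.96 normalized counts in naive DRG against 62.8, 67.3 and 100.05 after SNT, a log2 ratio of means of 6.29 (counting interval 4.73 to 8.58). The SNT libraries lay within 2-fold of each other and far from the naive ones, although the ratio rested on 3 naive reads, and without naive 1 the log2 ratio was 7.32. Il1a (ENSRNOG00000004575), interleukin 1 alpha, a cytokine released by damaged and inflamed cells, had no read in any naive library and 66.7, 59.7 and 66.1 in the SNT libraries. At 50 M its level was at least 65.2-fold higher after SNT. Its coefficient of variation (CV) over the SNT libraries, 6.01%, was below the 12.5% that counting alone gives at this depth. In the 25 M runs, where 2 naive reads of Il1a were found, its log2 ratio was 5.60, below the log2 bound of 6.03 at 50 M.

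Both urocortins, peptides of the corticotropin-releasing factor family, were among these genes. Ucn (ENSRNOG00000006090) had reads in naive 2 only, at 2.01 normalized counts, and 119, 106 and 137 in the SNT libraries. Its log2 ratio was 7.49 (5.67 to 10.58) and, without naive 2, at least 6.37. Ucn2 (ENSRNOG00000020655) likewise had reads in naive 2 only, at 3.01, and 28.5, 154 and 84.9 in the SNT libraries. The SNT libraries were thus even for Ucn and more than 5-fold apart for Ucn2, whose log2 ratio was 6.47 (4.90 to 8.75) and 5.82 without SNT 2. The 2 genes also differed in the sequences above, with a CRE match before Ucn and an AP-1 match before Ucn2, 167 bases from its start.

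Hamp (ENSRNOG00000021029) encodes hepcidin, the hormone of the liver that limits iron release into the blood. It had no naive read at 50 M and 125, 169.4 and 193 normalized counts in the SNT libraries, at least 165-fold higher. A single naive read was found for it in the shallower runs. Nps (ENSRNOG00000036653), neuropeptide S, an arousal peptide of the brainstem, had 0.99, 1.00 and 0 in naive DRG against 21.6, 30.4 and 22.7 after SNT, a log2 ratio of 5.23 (3.33 to 8.31). At 50 M both had SNT libraries close to each other, and the counting interval of Nps was wide, with 2 naive reads. In the shallower runs Nps was less even, with 8.19, 4.13 and 9.11 after SNT at 25 M and 5.29, 5.30 and 11.9 at 17 M. These values rest on 47 SNT reads in the 25 M and 17 M runs together.

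Crisp3 (ENSRNOG00000013496), a cysteine-rich secretory protein known from salivary gland, had the most reads of the 64 genes after SNT, in counts that are not per length. It had 1.98, 1.00 and 1.92 normalized counts in naive DRG against 1381, 1663 and 3889 after SNT. SNT 3 was more than 2-fold above the other two, and the log2 ratio of 10.47 (9.26 to 12.11) was 9.86 without SNT 3. The same order was found in the other runs, with 644, 940.5 and 1984 at 25 M and 396.5, 572 and 1316 at 17 M. No match to the 5 motifs was found in its window.

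Proteases were represented by a pair of matrix metalloproteinases and a granzyme. Mmp12 (ENSRNOG00000030187), macrophage metalloelastase, had 0.99, 0 and 0.96 normalized counts in naive DRG against 105, 592 and 136 after SNT. Mmp7 (ENSRNOG00000010507), matrilysin, had a single naive read, in naive 1, and 21.6, 116 and 18.9 in the SNT libraries. In both, SNT 2 was over 4-fold above each of the other SNT libraries, while SNT 1 and SNT 3 were close to each other. The log2 ratio of Mmp12 was 8.74 (6.80 to 11.71) and 7.54 without SNT 2, and that of Mmp7 was 7.31 (4.74 to 12.56), 5.94 without SNT 2 and at least 5.15 without naive 1. In the 17 M runs, where Mmp7 had 2 naive reads, its log2 ratio was 4.21, below that interval. Gzmb (ENSRNOG00000049976), granzyme B, the serine protease of cytotoxic lymphocytes and natural killer cells, had no read in any of the 9 naive runs. It had 29.4, 33.7 and 31.1 in the SNT libraries, at least 31.9-fold higher, with a CV of 6.79% against 17.9% from counting. With a tolerance of 0.2 its name was not unique. Its SNT libraries were even, unlike those of Cd8a, the coreceptor of cytotoxic T cells, which was over the naive limit with 8.04 to 10.9 in the naive libraries and had 217.8, 856 and 303 in the SNT libraries. Since the authors dropped reads with several mapping positions, genes with near-identical relatives, as granzymes have, may be counted low.

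Genes known from skin and other surface epithelia formed another group. Sprr1a (ENSRNOG00000024028), a small proline-rich protein of the cornified envelope that is also known from injured neurons, had no read in any of the 9 naive runs. It had 135, 165 and 229 normalized counts in the SNT libraries, at least 179-fold higher, the largest of the lower bounds. Its SNT libraries kept this order at 25 M (72.8, 89.8 and 121) and at 17 M (48.5, 59.3 and 75.9). Lce1f (ENSRNOG00000023892), a late cornified envelope protein, also had no read in any naive run, but its SNT libraries were uneven at 22.6, 50.0 and 12.3, at least 28.7-fold higher than naive (4.84 on the log2 scale), and without SNT 2 the log2 bound was 4.15. Plet1 (ENSRNOG00000024346), a surface protein of placenta and epithelial progenitors, had 0.99, 0 and 0.96 in naive DRG against 22.6, 29.3 and 28.3 after SNT, a log2 ratio of 5.36 (3.45 to 8.42). No symbol of the 14 markers listed for squamous epithelium could be matched to an identifier, so the presence of such tissue in the libraries was not tested.

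A pair of the named genes is known from striated muscle. Csrp3 (ENSRNOG00000014327), muscle LIM protein, a cytoskeletal and nuclear protein of muscle cells that is also known from regenerating sensory neurons, had the next most reads. It had 1.98, 1.00 and 3.83 normalized counts in naive DRG against 1112, 1201 and 1710 after SNT, a log2 ratio of 9.20 (8.16 to 10.52), and 9.81 without naive 3. Trim55 (ENSRNOG00000012723), the sarcomere-associated ubiquitin ligase MuRF2, had 0.99, 0 and 0.96 in naive DRG against 10.8, 61.9 and 23.6 after SNT, a log2 ratio of 5.63 (3.67 to 8.63) that was 4.73 without SNT 2. The SNT libraries lay within 2-fold of each other for Csrp3 and more than 5-fold apart for Trim55. None of the 18 muscle markers listed could be matched to an identifier, and muscle in the libraries was likewise not tested.

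The other named genes had varied roles. Hpd (ENSRNOG00000001338), an enzyme of tyrosine breakdown best known from liver, had 3 reads in naive 1, none in the other naive libraries, and 159, 245 and 300.1 normalized counts in the SNT libraries. Its log2 ratio was 7.89 (6.35 to 10.18), and no naive read was found in its 6 shallower naive runs. En1 (ENSRNOG00000046462), engrailed 1, a homeobox transcription factor that patterns the midbrain and limb, had no naive read at 50 M and 51.0, 44.5 and 59.5 in the SNT libraries, at least 52.5-fold higher; a single naive read was found for it in the shallower runs. Cnga4 (ENSRNOG00000017609), a subunit of the cyclic nucleotide gated channel of olfactory neurons, had 2.97, 1.00 and 0.96 in naive DRG against 52.0, 47.8 and 36.8 after SNT. Its log2 ratio was 4.79 (3.53 to 6.43), and 5.54 without naive 1.

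RT1-M2 (ENSRNOG00000049590), a nonclassical class I molecule of the rat major histocompatibility complex, had 0.99, 0 and 0.96 normalized counts in naive DRG against 35.3, 60.8 and 30.2 after SNT, a log2 ratio of 6.02 (4.09 to 9.04). In the 25 M runs, where it had 4 naive reads, the log2 ratio was 3.59, below that interval. Igsf7 (ENSRNOG00000046121), a receptor of the immunoglobulin superfamily, had 0, 1.00 and 3.83 in naive DRG against 28.5, 152 and 46.2 after SNT. Its log2 ratio of 5.55 (4.23 to 7.11) was 4.53 without SNT 2 and 7.23 without naive 3, so that 1 library in either group moved it, and its name was not unique with a tolerance of 0.2. Mroh4 (ENSRNOG00000005382), a HEAT-repeat protein, had reads in naive 3 only, at 1.92, and 87.3, 44.5 and 123 in the SNT libraries, a log2 ratio of 7.05 (5.18 to 10.10), or at least 5.83 without naive 3. Unlike Igsf7, it was lowest in SNT 2.

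The 43 unnamed genes had SNT means from 12.3 to 111 normalized counts, with a median of 23.6. Of the 43, 4 had no naive read, with lower bounds of 12.5-fold to 26.2-fold, and the log2 ratios of the other 39 ran from 2.50 to 7.32 with a median of 3.89. For 13 of the 43 a listed ratio lay within 0.1 but not uniquely. The unnamed gene with the highest SNT mean, ENSRNOG00000015279, had 1.98, 2.01 and 0.96 in naive DRG against 98.1, 102 and 133 after SNT. The next, ENSRNOG00000007129, had 2.97, 0 and 1.92 in naive DRG against 44.2, 231 and 53.8 after SNT. Their SNT means were alike, at 111 and 110, but the first was even over the SNT libraries and the second was over 4-fold higher in SNT 2.

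How uneven the genes were over the SNT libraries was not set by the limits, which fix only a minimum in each. The CV over the 3 SNT libraries ran from 5.07% to 106%, with a median of 32.0% and, from counting alone, a median of 18.5%. It was over 50% in 16 genes, under 20% in 17, and over 2 times the counting value in 29. Among all 14360 tested genes with every SNT library at 10 or more, whose median SNT mean was 399 normalized counts, the median CV was 13.4%. SNT 1 was the lowest of the SNT libraries in 40 of the 64 genes (62.5%), against 43.7% of those 14360. SNT 2 was the highest in 33 (51.6%, against 41.0%), SNT 3 in 24 (37.5%, against 19.8%) and SNT 1 in 7 (10.9%, against 39.1%). For 30 of the 64 the 25 M and 17 M runs gave the same highest library as the 50 M runs.

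Some of the genes were high in SNT 2 above the other SNT libraries. Grouped after their values were seen, 11 of the 64 genes (17.2%) had SNT 2 at least 2 times both other SNT libraries at 50 M, against 0.724% of the 14360 genes. The pattern was not particular to the 64. It was also found in 6 (25%) of the 24 named genes outside the limits, all listed by the study for large rises. These 6 were Cd8a, Gpnmb, Htr2b, Lilrb4, Trem2 and Vsig4. The 11 of the 64 were Mmp12, Mmp7, Igsf7, Trim55, Lce1f and 6 unnamed genes, ENSRNOG00000007129 among them. In the shallower runs, which are separate reads from the same libraries, SNT 2 was the highest of the SNT libraries for 11 of the 11 at 25 M and at 17 M, and at least 2 times both others for 10 of 11 at each depth. The exception at 25 M was Lce1f, with 13.7, 17.6 and 11.8 normalized counts, and at 17 M an unnamed gene. The median of SNT 2 over the mean of SNT 1 and SNT 3 had for the 11 genes the values 3.73 (50 M runs), 3.17 (25 M) and 3.90 (17 M), and for the other 53 the values 1.08, 1.13 and 1.04.

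The named genes of this set had their highest value in SNT 2 in the shallower runs too. Mmp12 had 53.7, 338.6 and 65.6 normalized counts after SNT at 25 M and 27.3, 227 and 49.4 at 17 M, with SNT 2 over 4-fold above both other libraries each time. Trim55 had 7.28, 26.8 and 10.02 at 25 M and 4.41, 24.4 and 7.32 at 17 M, and no naive read in either. For Igsf7 the values were 21.8, 72.3 and 16.4 at 25 M, then 7.05, 55.1 and 12.8 at 17 M. In each of these genes and in both sets of runs SNT 2 was over 2-fold above SNT 1 and SNT 3. Mmp7 was less extreme at 25 M, with 12.7, 52.65 and 24.6, than at 17 M, with 5.29, 28.6 and 5.49. Ucn2 also kept SNT 2 as its highest library, with 28.2, 80.5 and 54.7 at 25 M and 9.69, 48.7 and 39.3 at 17 M, although SNT 2 did not reach 2 times SNT 3. By contrast Mroh4 changed its highest library from SNT 3 at 50 M to SNT 1 at 25 M (48.2, 37.2 and 42.8) and back to SNT 3 at 17 M (19.4, 20.1 and 42.1).

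**Figure D3:**
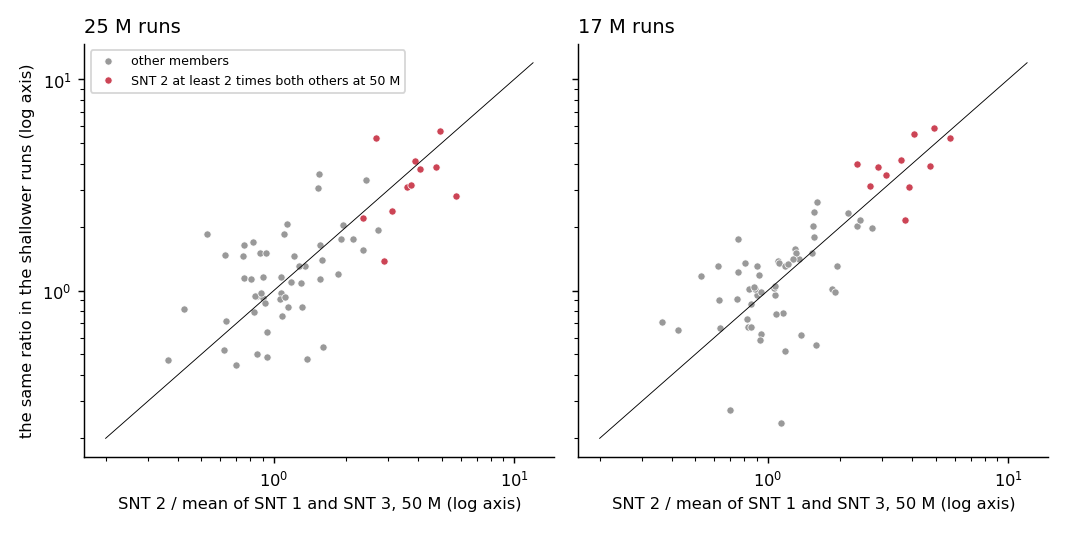
SNT 2 over the mean of SNT 1 and SNT 3 for each of the 64 genes at 50 M (x axis) against the same ratio at 25 M (left) and 17 M (right), all on log axes, with the line of equal values. The 11 genes with SNT 2 at least 2 times both other libraries at 50 M (red) lie at the upper right at both depths, around medians of 3.17 and 3.90.

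Markers of cell types moved over the same libraries. Of 17 macrophage markers, Ptprc, the pan-leukocyte phosphatase, and Trem2, a lipid receptor of macrophages, could be matched. Ptprc had 666, 1860 and 1056 normalized counts in SNT libraries 1, 2 and 3 and Trem2 had 399, 1502 and 662, so that both were highest in SNT 2, at 2.16 and 2.83 times the mean of SNT 1 and SNT 3. The 2 genes summed to 177 to 491 in naive DRG against 1065 to 3362 after SNT. Of 14 markers of T or NK cells, Cd8a and Gzmb could be matched, with sums of 8.04 to 10.9 in naive DRG against 247 to 889.6 after SNT, and Cd8a was 3.29 times higher in SNT 2 than in the mean of the others.

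Of 20 sensory neuron markers, Uchl1, Prph, Nefh, Calca and Snap25 could be matched. Their sums were 309923 to 353265 in naive DRG against 84131 to 185920 after SNT. Nefh made up most of the naive sums, with a naive mean of 203041, and the markers fell unequally. The fitted log2 fold change was -2.02 for Nefh, -2.37 for Calca and -2.15 for Snap25. It was only -0.60 for Uchl1 and -0.28 for Prph, which was not called. All 5 were lowest in SNT 2 and highest in SNT 1, with Nefh, the heavy neurofilament, at 95133, 32294 and 40830. The 6 glial markers matched of 15 summed to 286241 to 525985 in naive DRG against 348377 to 438209 after SNT, and the 3 fibroblast markers matched of 12 (Col1a1, Col3a1 and Dcn) to 45070 to 71315 and 101732 to 154362. No matched marker was at 0 in all libraries. Markers were matched only through the study's supplementary gene table or its named list, which hold genes with reads, so this was likely in advance. None of the markers of red blood cells (9) or dividing cells (8) could be matched. The part of leukocyte number in the SNT 2 pattern of the 11 genes was not tested, and neither was that of neuronal share in the low SNT 1 values.

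**Figure D4:**
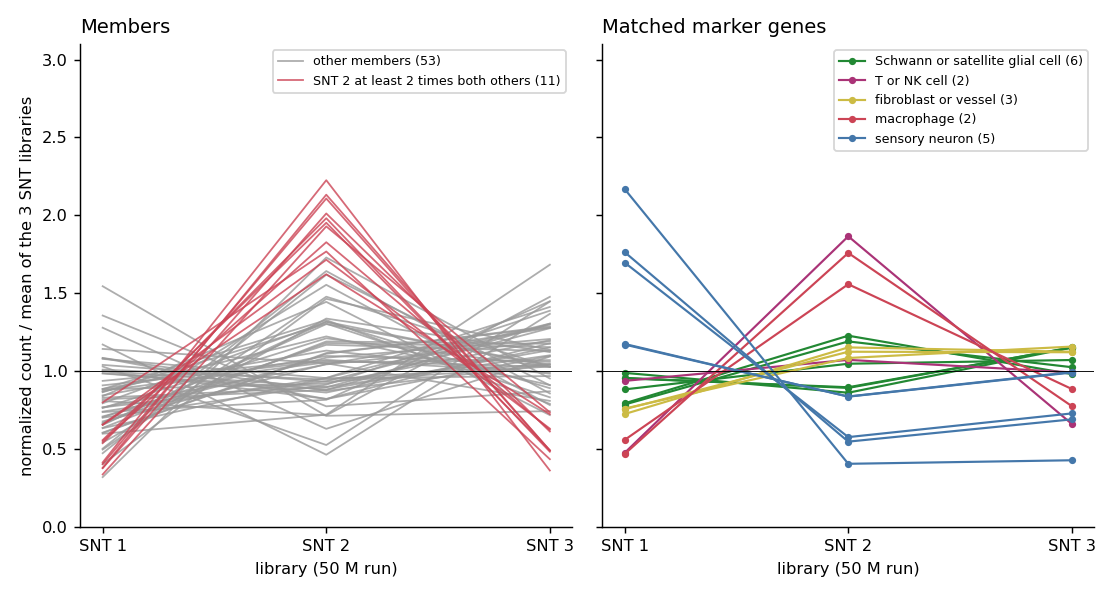
Normalized count at 50 M divided by the mean of the 3 SNT libraries, for the 64 genes (left; red, the 11 with SNT 2 at least 2 times both others) and for matched cell type markers (right). The 11 genes, Ptprc, Trem2 and Cd8a peak in SNT 2, while the neuronal markers are highest in SNT 1.

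In the shallower runs, which did not choose the genes but come from the same libraries, the naive level stayed low. At 25 M the 64 genes had 144 naive and 10974 SNT reads, and at 17 M 93 naive and 6766 SNT reads. As a share of the summed SNT level, the summed naive level made up 1.32% in the 50 M, 1.43% in the 25 M and 1.48% in the 17 M runs. Crisp3 and Csrp3 made up 55.2% of the summed SNT level at 50 M, and the median over the 64 genes of the naive mean as a share of the SNT mean was higher, at 4.11%, 2.25% and 3.88%. Reads were found in every SNT run for all 64 genes at 25 M and for 63 at 17 M. The lowest SNT run was above the highest naive run for 63 of 64 genes at 25 M and for 59 at 17 M. A naive read was found for 46 genes at 25 M and 44 at 17 M, with at most 6.23 and 3.96 normalized counts in a run. Only 6 of the 10 genes with no naive read at 50 M had none in the other 6 naive runs either, and a count of 0 at this depth allows up to 3 reads.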

How the data were processed

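RNA-seq of 3 SNT and 3 naive L5 DRG libraries was analysed. Per the study's methods, the authors used Bowtie to place 34-base reads on Rn5, at most 1 mismatch being accepted, dropped reads with several positions, and counted reads on annotated exons per Ensembl gene. The library kit does not mark strand, so antisense reads were counted with the gene. The deposited signal values are counts that the authors divided by DESeq size factors, 1 table per depth. All values were whole multiples of 1 read (tolerance 0.01 read), and read counts were recovered from them: 15000789 to 19031166 per library at 50 M, 8319112 to 9951906 at 25 M and 4968448 to 6154543 at 17 M. All 18 columns were used.

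At 50 M, genes read in 3 or more libraries entered a limma fit (version 3.58.1, R 4.3.3) of log2(normalized count + 1) with a trended variance prior, no covariate, two-sided, with Benjamini-Hochberg adjustment and an FDR of 0.1; the fit was tested on simulated counts. For the name match a naive mean of 0 was taken as 1. All genes with a unique match are named, and of the unnamed genes the 2 with the highest SNT mean are printed. Intervals are exact (Clopper-Pearson) on summed reads. Alternatives were pseudocounts, filters, scalings, edgeR 4.0.16 and DESeq2 1.42.0 on the recovered reads, an FDR of 0.05, a replicate block, other limits and leaving out each library. The genes, lists and motifs were chosen with earlier results of these data known. Values of the exon arrays were not used here.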

Additional observations from a re-analysis of the deposited data

How the results depend on the processing

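The number of genes that met the limits depended on the limits. It was 30 with an SNT minimum of 20, 26 with a naive maximum of 2, 152 with a naive maximum of 8 and 42 in the 25 M runs with limits scaled to the depth, against 64. Of the 42, 33 were among the 64, as were 33 of the 58 that met scaled limits at 17 M. With the same limits 63 genes met them in the 25 M and 63 in the 17 M runs, and only 32 and 16 of these were among the 64. With libraries scaled to equal totals it was 80, of which 64 were shared, and leaving out 1 library it ran from 66 to 92, since 1 fewer library had to meet them. With tolerances of 0.05 and 0.2 for the names, 23 and 19 genes were named, of which 20 and 19 were among the 21; En1 was lost at 0.05 and Igsf7 and Gzmb at 0.2. In the fit over all genes, 8416 to 11346 genes were called in the alternatives against 10497. Of these calls, 4074 to 6602 were higher in SNT, against 5231. Every gene described here that was tested was called higher in each alternative (51 to 64), which follows from the limits on the same contrast. Replicate numbers did not pair the groups (correlations of deviations of same-numbered libraries 0.04, -0.30 and 0.15), and with the number as a replicate block 9459 genes were called, with 64 of the 64. Of 189 values of the named log2 ratios or bounds under alternatives, 67 moved by more than 1 SD of the SNT libraries and none reversed. Where no naive read was left the value was a lower bound, which falls with depth and with 1 fewer naive library. The 67 include such falls: the log2 bound of Sprr1a, 7.49, was 6.91, 6.92 and 6.88 without naive 1, 2 and 3. When 1 library was left out a reversal was not possible, because the limits hold in every library of the deepest runs. For those values the lack of a reversal therefore follows from the limits and is no test. Low naive counts limit the ratios: 29 of the 64 genes had 3 naive reads or fewer. With 3 libraries per group no single sample could be called apart from its group.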
